A study of Mus musculus with 3 samples.

Results

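The signal recognition particle (SRP) genes described here were the 7SL RNA genes Rn7s1 and Rn7s2, the protein subunit genes Srp9, Srp14, Srp19, Srp54a, Srp68 and Srp72, and the receptor subunit gene Srprb. They were chosen by symbol, and all 9 were found among the 55341 gene symbols of the tables. The SRP is a complex of 1 RNA and several proteins that binds a signal peptide as it leaves the ribosome and slows elongation. It then brings the ribosome to the SRP receptor on the endoplasmic reticulum, where the growing chain enters the Sec61 translocon. Macrophages make many secreted and membrane proteins that take this route. 7SL RNA is the scaffold of the particle and is made by RNA polymerase III, whereas the subunit mRNAs are made by RNA polymerase II.

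The 3 libraries formed 1 group. They held ribosome-depleted total RNA of the cytosol of C57BL/6J macrophages grown from bone marrow and given lipid A, the Toll-like receptor 4 agonist part of lipopolysaccharide, at 100 ng/ml for 90 min. Each library was made from 1 µg of RNA with a labelled size range of 250 to 400, and all 3 carry 1 donor identifier, so errors and p-values measure only the spread between these samples, which may be technical. Neither unstimulated macrophages nor nuclear RNA are analysed here, so levels were compared between genes and between 2 deposited quantifications of the same libraries, and no effect of lipid A was measured.

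Total expected counts of the first quantification, which was made from alignments to the transcriptome, were 33821479, 47843161 and 59390843 in replicates 1, 2 and 3. Levels are given in TPM, a length-scaled share of all transcripts, which divides counts by an effective length, the number of positions at which a fragment can start. The 5 macrophage markers all lay above the reference defined below, with a median of 219 TPM. The 12 T and NK, B, erythroid and fibroblast markers were each at a mean of at most 0.043 TPM, and of the 4 neutrophil markers S100a9 had the highest mean, 19.3 TPM. The nuclear RNA Malat1 measured 128, 335 and 913 TPM in replicates 1, 2 and 3, and its part in any difference between libraries was not tested.

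The RNA genes are described first, because their likeness sets what can be measured about each. Both lie on chromosome 12 of mm10, Rn7s1 (ENSMUSG00000099021.1) on the plus strand and Rn7s2 (ENSMUSG00000099250.1) on the minus strand. Each is annotated as a misc_RNA of 300 bases. Their GENCODE M21 transcripts were identical over all 300 bases, so 0 of the 270 31-base words of either gene were found in it alone. Another 7SL gene, Rn7s6, lies on chromosome 6 and is annotated as a misc_RNA of 291 bases, and 43.7% of its 31-base words were found in no other gene.

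7SL RNA was the most abundant RNA of the first quantification. Rn7s1 measured 319409.7, 311783.5 and 296198 TPM in replicates 1, 2 and 3, and Rn7s2 measured 319409.7, 312706 and 297606 TPM. These were ranks 2 and 1 among all genes by mean TPM. Expected counts were 1499926 for each gene in replicate 1, and the TPM ratio of Rn7s1 to Rn7s2 was 0.997 ± 0.0024 (SD, n = 3). An equal split of reads between identical sequences gives no separate level for either locus. Ratios of 7SL RNA to other genes use their sum, and tests that run gene by gene count the pair as 2 entries although it measures 1 RNA. The deposited posterior standard deviation of the Rn7s1 count was 19588, 29331 and 37425 in the 3 libraries, 17.99 ± 2.36 times the Poisson value (SD, n = 3).

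Summed over both genes, 7SL RNA reached 638819, 624489 and 593804 TPM, or 61.9% ± 2.30 of all TPM (SD, n = 3). The same RNA held 8.87%, 11.96% and 11.1% of the expected counts. The share of TPM was highest in replicate 1 and the share of counts was lowest there. The effective length of this 300-base RNA was 78.9 positions in replicate 1, 97.0 in replicate 2 and 97.1 in replicate 3, and the library totals differed as well. For Srp14, whose mean length was 798 bases in replicate 1, the effective length differed less in proportion, at 562, 587 and 587 positions. The level of 7SL RNA is therefore set against the subunit mRNAs both in TPM and in counts.

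The other 10 annotated 7SL copies (at least 150 aligned bases at 80% identity or more, plus strand) together held 0.0046% ± 0.0014 of the 7SL counts (SD, n = 3). Rn7s6 measured 19.2, 39.5 and 28.3 TPM, and summed 7SL RNA was 33237, 15822 and 21012 times as high. Gm26461, at 96.5% identity over 201 bases, measured 3.31, 1.80 and 0.99 TPM. The other 8 copies were listed at 0 in all 3 libraries. In the second quantification Rn7s6 measured 13.2, 38.3 and 17.9 TPM, with summed 7SL RNA 18625, 5591 and 8345 times as high, and Gm26461 measured 31.4, 15.3 and 9.32 TPM, and 9 of the 10 copies had a value above 0. Gm24105 and Gm23153 followed with means of 1.03 and 0.728 TPM and Gm24514 with 0.495 TPM. In both quantifications nearly all 7SL reads were thus given to the identical pair.

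**Figure D1:**
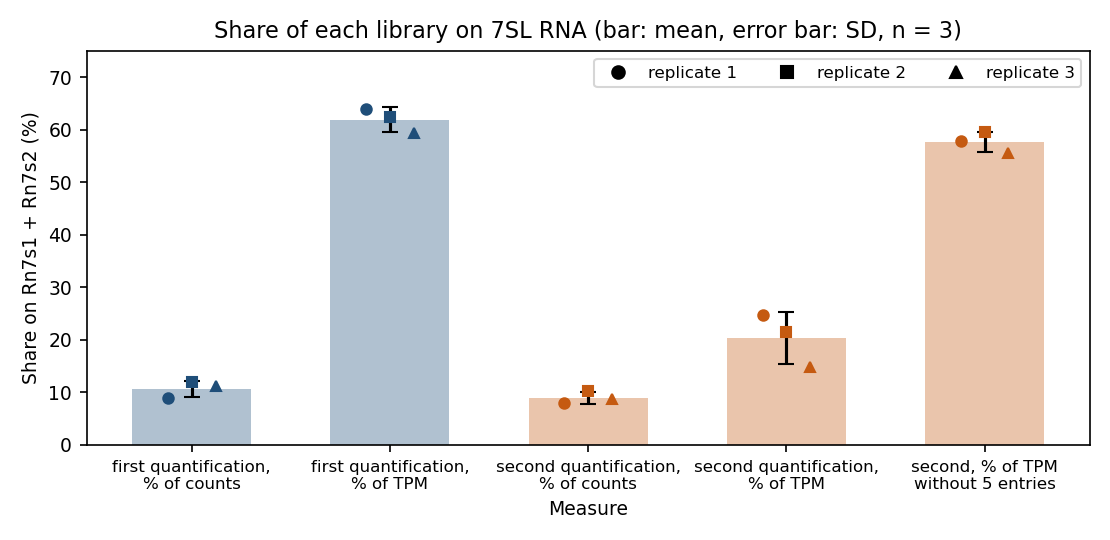
Share of each library on Rn7s1 and Rn7s2 in percent (vertical axis) for 5 measures (horizontal axis). Bars are means, error bars the SD of 3 libraries, and symbols the libraries. The share was 61.9% of TPM in the first quantification and 20.3% in the second, but 10.7% and 8.95% of the counts.

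The second quantification, which the deposited notes derive directly from the sequencing files, gave 7SL RNA nearly the same counts and far fewer TPM. The summed count was 1.04 ± 0.0034 times that of the first quantification (SD, n = 3), and identical for both genes in each library. The summed TPM were 246434, 214036 and 149140.2, or 24.6%, 21.4% and 14.9% of the total. All 3 libraries lay below the first quantification, and the groups of values did not overlap. Most genes were lower too, with 86.8% of 9476 called lower in the comparison described below when it was not centred. The median log2 ratio of second to first TPM over these genes was -1.02, -1.22 and -1.52 in replicates 1, 2 and 3. For Rn7s1 the mean ratio was -1.64 ± 0.32 log2 units (SD, n = 3). The 5 entries named next, which the first quantification listed at 0, held 57.3%, 64.0% and 73.2% of the TPM of the second. These were the 226-base processed pseudogenes Gm12895 and Gm12896, with 37.1% ± 9.60, and the 57-base entries annotated as miRNAs Gm24245, Gm24270 and Gm23935, with 27.7% ± 1.79 (SD, n = 3). With these entries left out of the total, a calculation added after the data were seen, 7SL RNA held 57.7%, 59.5% and 55.6% of TPM. That was lower than the first quantification in 3 of 3 libraries, by 4.29 ± 1.65 percentage points (SD, n = 3).

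Among the 6 protein subunits the order by mean TPM was Srp14, Srp54a, Srp9, Srp72, Srp68 and Srp19, followed by the receptor gene Srprb. The highest subunit was 3.83 ± 0.286 times the lowest (SD, n = 3), with Srp54a taken without its copies Srp54b and Srp54c, described below. Each neighbouring pair in this order differed in the same direction in 3 of 3 libraries, and the mean difference was more than its SD. The narrowest was Srp72 over Srp68, by 0.22 ± 0.07 log2 units of TPM, with Srp68 over Srp19 at 0.22 ± 0.17 (SD, n = 3). In replicate 1 Srp68 lay above Srp19 by only 0.05 log2 units. No p-value is given, since the smallest exact sign-flip p with 3 libraries is 0.25. In the second quantification the order was the same, but Srp14 and Srp54a were not set apart (0.20 ± 0.25 log2 units), because Srp54a was the higher in replicate 3. Srp68 over Srp19 barely met the rule there, at a mean of 0.205 with an SD of 0.203 log2 units, and lay at 0.01 in replicate 1.

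To place these levels among other mRNAs, each gene was compared with a reference, the median over the 8742 protein-coding genes whose mean TPM reached 1. It was 7.38, 6.08 and 6.21 TPM in replicates 1, 2 and 3. A call required a Benjamini-Hochberg adjusted p under 0.05 in limma, over 13320 genes, and a log2 difference of at least 1. Of these genes, 20.5% lay above the reference and 50.6% below it, with a median log2 difference of -1.06. They were of any type and of at least 0.1 TPM, so many were too low to count among the reference genes. The 6 subunits were higher than 61.5% (Srp19) to 88.6% (Srp14) of the reference genes, and Srprb than 41.9%. Of the 9 SRP genes 5 lay above the reference (Rn7s1, Rn7s2, Srp14, Srp54a and Srp9) and 0 below it, with a median of 1.27. With the identical pair counted once, 4 of 8 lay above it, with a median of 1.12. All 9 had an adjusted p under 0.05, as did 92.8% of all genes tested, so the size of the difference decided the calls. Against a reference of genes of at least 5 TPM, Srp9 and Srp54a were no longer called, at 0.24 and 0.75 log2 units, and Srprb lay below it, at -1.37. Rn7s1 lay at 15.51 ± 0.12 and Rn7s2 at 15.51 ± 0.12 log2 units (SD, n = 3; limma adjusted p = 3.2e-05 for each).

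Srp9 and Srp14 encode the dimer that binds the Alu domain of 7SL RNA, the end of the particle that slows elongation. Srp14 (chromosome 2, minus strand) measured 43.2, 32.9 and 33.96 TPM from 1446, 1819 and 2289 expected counts. It was higher than 88.6% of the reference genes. Its log2 difference from the reference was 2.46 ± 0.06, a 5.50-fold higher level (SD, n = 3; limma adjusted p = 3.8e-05). Srp9 (chromosome 1, plus strand) measured 16.4, 15.3 and 15.9 TPM, and its log2 difference was 1.27 ± 0.11 (SD, n = 3; limma adjusted p = 0.00022). Srp9 was below Srp14 in every library, at 0.380, 0.466 and 0.467 of its TPM, and at 0.437 ± 0.0482 in the second quantification (SD, n = 3). In expected counts, with no division by length, this ratio was 0.854 ± 0.0898. The call of Srp9 was lost in the second quantification, where it lay at 0.72 ± 0.07 log2 units (SD, n = 3; limma adjusted p = 0.0012). The reference there again took genes of at least 1 TPM, although most genes had lower TPM, so its set of genes was not held fixed. Centred on the median over genes, the log2 ratio of second to first TPM of Srp9 was -0.08 ± 0.06 (SD, n = 3). An overlapping pseudogene on the other strand, Gm17968, held 13.6% of the 31-base words of Srp9 and a mean of 0.013 TPM.

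Srp68 and Srp72 encode a dimer that binds the S domain of 7SL RNA, the end of the particle that recognises signal peptides. Srp72 (chromosome 5) measured 15.0, 11.92 and 11.95 TPM, and Srp68 (chromosome 11) measured 12.2, 10.4 and 10.7 TPM. Their log2 differences from the reference were 0.97 ± 0.04 and 0.75 ± 0.03, both under the size of 1 that a call needed (SD, n = 3; limma adjusted p = 0.00022 and 0.00043). The partners lay close together, with Srp68 at 0.817, 0.872 and 0.895 of the TPM of Srp72. This ratio was 0.800 ± 0.018 in the second quantification and 0.599 ± 0.0355 in expected counts, with no division by length (SD, n = 3). With deposited FPKM in place of TPM Srp72 passed, at 1.19 log2 units, and with counts per annotated length Srp72 and Srp68 both passed, at 1.28 and 1.03. The cutoff of 1 for reference genes was then applied to the other unit, so the set of reference genes was not held fixed. With FPKM Srp9, Srp14 and Srp19 also lay higher than with TPM, at 1.49, 2.69 and 0.76 log2 units.

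Srp19, which helps the S domain take up SRP54, was the lowest of the 6 subunits at 11.8, 8.95 and 8.16 TPM. It lay 0.54 ± 0.14 log2 units from the reference and was not called (SD, n = 3; limma adjusted p = 0.0043). Replicate 1 held the highest value of Srp19 as it did for Srp14, Srp9, Srp68, Srp72 and Srprb, and the reference was also highest there. Srp19 rested on 438 counts in replicate 1, with an exact 95% Poisson interval of 398 to 481, which covers counting error only. As TPM that interval ran from 10.7 to 12.9, above the 8.22 to 9.73 of replicate 2, but these intervals do not allow for the higher reference of replicate 1. Relative to the reference the 3 libraries lay at 0.67, 0.55 and 0.39 log2 units, all above it and the highest again in replicate 1.

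Srp54a encodes the GTPase subunit that contacts both the signal peptide and the SRP receptor, and it is the first of 3 annotated copies. Srp54a, Srp54b and Srp54c lie in a row on the plus strand of chromosome 12. The longest coding sequences of Srp54a and Srp54b were identical over 1515 bases, and that of Srp54c differed from them at 6 bases. Only 27.5% of the 31-base words of Srp54a, 10.1% of those of Srp54b and 4.0% of those of Srp54c were found in no other gene, so the split between the copies is uncertain. Bases 906 to 965 of the coding sequence hold 3 of the 6 differences, shown in capitals.
Srp54a and Srp54b: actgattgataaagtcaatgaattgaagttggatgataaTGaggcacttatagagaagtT
Srp54c: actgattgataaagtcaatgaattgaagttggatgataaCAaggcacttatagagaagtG

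Srp54a measured 21.3, 21.03 and 26.0 TPM, Srp54b 12.3, 11.1 and 15.4 TPM, and Srp54c 15.4, 12.6 and 13.1 TPM. Srp54a was the highest copy in every library, and Srp54b and Srp54c changed places in replicate 3. The log2 difference from the reference was 1.78 ± 0.27 for Srp54a and 1.05 ± 0.01 for Srp54c (SD, n = 3; limma adjusted p = 0.00044 and 0.00016), both called higher. Srp54b lay at 0.96 ± 0.30 without a call. Summed over the 3 copies, SRP54 reached 49.0, 44.7 and 54.5 TPM, above Srp14 in every library. The deposited posterior standard deviation of the Srp54a count was 68.5, 87.8 and 104.6, whereas those of Srp14, Srp19, Srp68 and Srp72 were 0 in all 3 libraries. Srp54b also had a mean transcript length of 3407, 2670.1 and 2292 bases in replicates 1, 2 and 3. Relative to the reference Srp54b lay at 0.73, 0.85 and 1.30 log2 units in the same libraries, and the part of that length in its level was not tested.

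The quantifications divided SRP54 differently. Srp54a held 46.1% ± 2.24 of the summed SRP54 TPM in the first and 53.2% ± 1.66 in the second, and it was higher in the second in 3 of 3 libraries. Srp54b held 26.0% ± 1.95 and 22.8% ± 1.83, and Srp54c 27.9% ± 3.70 and 24.0% ± 2.47 (SD, n = 3). These shares were not tested. The counts summed over the copies were 6830, 9055 and 12665 in the first and 7279, 9571 and 13660 in the second quantification.

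**Figure D2:**
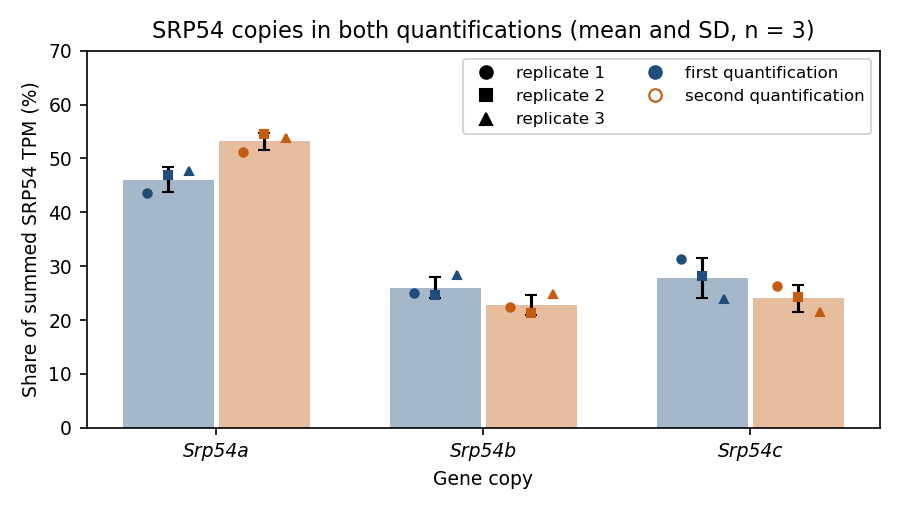
Share of the summed SRP54 TPM (vertical axis, percent) on each copy (horizontal axis) in both quantifications. Bars are means, error bars the SD of 3 libraries, and symbols the libraries. Srp54a held 46.1% in the first and 53.2% in the second quantification.

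Srprb, the membrane-anchored beta subunit of the SRP receptor, was the lowest of the 9 genes at 5.23, 5.13 and 5.02 TPM, from 880, 1382 and 1646 counts. It lay at -0.34 ± 0.13 log2 units from the reference, with 41.9% of the reference genes lower, and was not called (SD, n = 3; limma adjusted p = 0.015). The alpha subunit gene, listed as Srpr, measured 18.8, 15.7 and 16.1 TPM, with a log2 difference of 1.35 ± 0.01 (SD, n = 3; limma adjusted p = 8.8e-05). Srpr was 3.59, 3.07 and 3.20 times as high as Srprb in TPM, 4.15 ± 0.270 times in the second quantification and 3.18 ± 0.277 times in expected counts (SD, n = 3). Shared sequence touches both genes. Gm20425 overlaps Srprb on the same strand and holds 20.5% of its 31-base words, and it had a mean of 0.020 TPM in the first and 0.481 TPM in the second quantification. Srpr overlaps Fam118b, Foxred1 and Tirap on the other strand, and the sources used here do not say whether counting used strand.

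**Figure D3:**
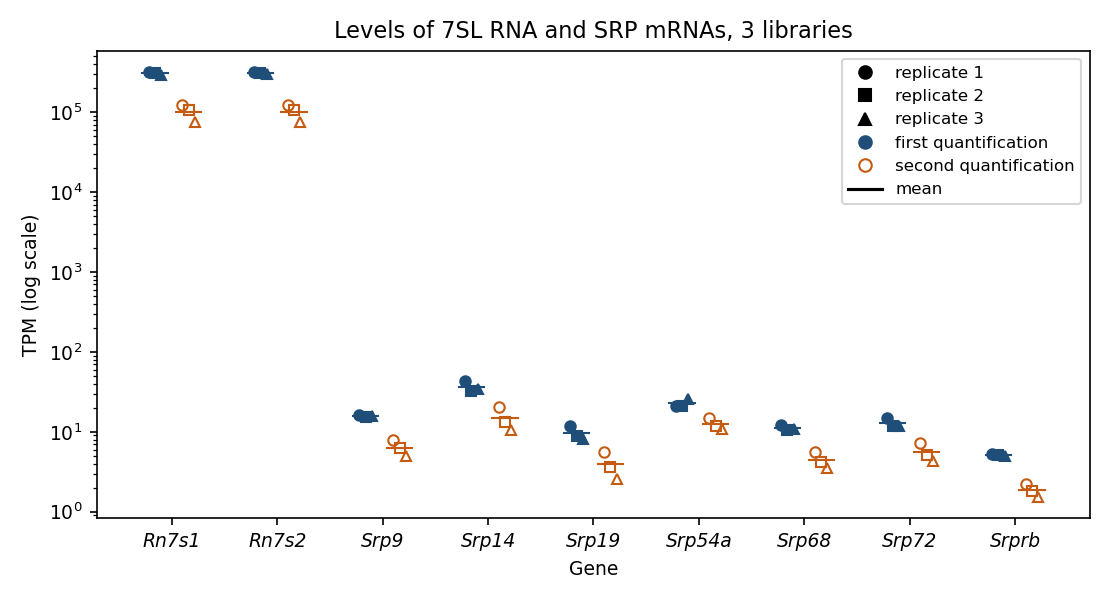
TPM of the 9 SRP genes (vertical axis, log scale) by gene (horizontal axis) in the first (filled) and second (open) quantification. Symbols are the 3 libraries and lines their means. Rn7s1 and Rn7s2 sit near 309130.3 TPM in the first quantification, and the mRNAs between 5.02 and 43.2 TPM.

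Set against the subunit mRNAs, 7SL RNA exceeded the median of the 6 subunits by 15.31, 15.48 and 15.38 log2 units of TPM, a mean of 15.39 ± 0.09 or 43048-fold (SD, n = 3). Against single subunits the mean ran from 14.05 ± 0.18 log2 units for Srp14 to 15.99 ± 0.23 for Srp19. The SD between libraries was thus small beside the difference on each scale. The size depended on how length was treated. It was 15.06 ± 0.13 log2 units in the second quantification, 13.85 ± 0.24 with counts divided by annotated length, and 11.23 ± 0.28 with expected counts alone (SD, n = 3). The last of these compares reads, not levels. With annotated length the 7SL RNA level was 14726-fold that of the median subunit. Summed, the 6 subunit mRNAs held 119.9, 100.5 and 106.6 TPM, and their expected counts made up 0.0300% ± 0.0006 of the library (SD, n = 3). Srp54a alone stands for SRP54 in these comparisons, whereas its 3 copies summed to 49.0, 44.7 and 54.5 TPM, above Srp14 in every library.

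**Figure D4:**
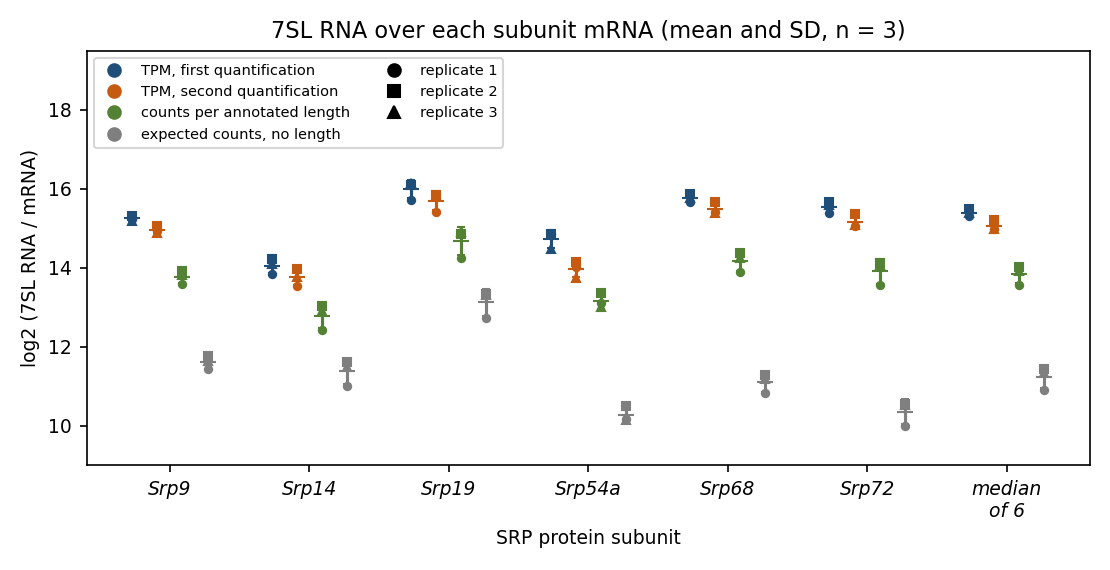
Log2 ratio of 7SL RNA (Rn7s1 + Rn7s2) to each subunit mRNA (vertical axis) by subunit (horizontal axis) on 4 scales. Symbols are the 3 libraries, with mean and SD. The ratio to the median subunit was 15.39 in TPM, 15.06 in the second quantification, 13.85 per annotated length and 11.23 in counts.

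The quantifications were then compared gene by gene. The log2 ratio of second to first TPM had a median over 9476 genes of -1.02, -1.22 and -1.52 in replicates 1, 2 and 3, and it was centred on that median. Of these genes 2.72% were called higher and 1.88% lower in the second quantification. Of the 9 SRP genes 0 were called in either direction by limma, while 7 had an unadjusted p under 0.05 and 5 an adjusted p under 0.05. Over all genes tested these shares were 60.4% and 49.2%. Srp54a lay highest among them at 0.38 ± 0.11, and Rn7s1 and Rn7s2 lowest at -0.38 ± 0.08 each (SD, n = 3; limma adjusted p = 0.019, 0.011 and 0.011). Srp9, Srp14, Srp19, Srp68 and Srp72 lay between -0.09 and 0.02, and Srprb at -0.17 ± 0.06. Without centring, 8 of the 9 were called lower in the second quantification, all but Srp54a, against 86.8% of all genes tested. With counts in place of TPM 0 were called, with 6 unadjusted p under 0.05, against 48.6% of all genes.

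Most TPM of the subunit genes were given to protein-coding transcripts. In the first quantification these held 100.0% of Srp14 and Srp68 TPM in every library, and 99.5% ± 0.492 of Srp9, 96.8% ± 1.88 of Srp54a, 96.3% ± 2.24 of Srp72 and 92.8% ± 1.24 of Srp19 (SD, n = 3). For Srprb they held 99.3% ± 0.422. In the second quantification they held 97.5% ± 1.84 of Srp68, 99.9% ± 0.135 of Srp14 and 99.4% ± 0.672 of Srp9 (SD, n = 3). The shares there were 91.2% ± 2.27 for Srp54a, 94.4% ± 3.32 for Srp72, 92.3% ± 1.14 for Srp19 and 98.0% ± 1.93 for Srprb (SD, n = 3). Retained-intron transcripts of Srp72 held 2.68%, 2.18% and 6.28% of its TPM in the first quantification and 4.42%, 3.11% and 9.41% in the second, and those of Srp9 0.18%, 0.26% and 1.07% in the first. The share was highest in replicate 3 for both genes, the library with the most Malat1, and the part of nuclear RNA in this was not tested. Within genes the quantifications differed most for Srp72. Srp72-201, of 3625 bases, held 96.3% ± 2.24 of its TPM in the first and 77.1% ± 10.9 in the second quantification. Srp72-202, of 2297 bases, was listed at 0 in the first and held 7.11%, 20.6% and 24.0% in the second. For Srp54a the 4498-base transcript Srp54a-202 held 24.3% ± 1.97 in the first and 12.1% ± 0.323 in the second quantification.

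Spread between the 3 libraries was tested on rounded expected counts with the goodness of fit of edgeR, which asks whether a gene varies more than genes of its level. Of 12324 genes 2.32% were called. Of the 9 SRP genes 0 were called by edgeR, with 0 at an unadjusted p under 0.05, against 6.04% of all genes. With the size factors of DESeq2 or the counts of the second quantification 0 were called, against 2.32% and 1.88% of all genes. The SD of log2 CPM of the 9 genes had a median of 0.12, as over all genes (0.12). Srp68 and Srp14 had the smallest SD of the 9, 0.04 each. Srp54a varied most among the mRNAs, at 6.21, 6.41 and 6.66 log2 CPM, with an unadjusted edgeR p of 0.068 and an adjusted p of 0.98. Rn7s1 measured 15.38, 15.90 and 15.80, lowest in replicate 1. Its SD of 0.28 was larger than that of 82.2% of genes, with an unadjusted edgeR p of 0.92. No gene but Rn7s2 lay near its level, so the trend there rests on few genes and the test cannot judge its spread. 7SK RNA (Rn7sk), another product of RNA polymerase III that acts in the nucleus, differed more, so that 7SL RNA was 19.4, 8.11 and 7.11 times as high as Rn7sk in TPM and 14.6, 6.29 and 5.51 times in expected counts. The SD of log2 CPM of Rn7sk was 1.03, larger than that of 98.6% of genes. Its test for spread was not called (edgeR adjusted p = 1.0), and the limit given for Rn7s1 may hold for it too. The nuclear RNAs Malat1 and Neat1 were called for spread (edgeR adjusted p = 0.019 and 1.2e-22).

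Genes with the most similar levels were found by Euclidean distance of log2 TPM over the 3 libraries. For Rn7s1 they were Rn7s2 (distance 0.0081), Rn7sk (4.26) and Rpph1, the RNA of RNase P (5.17), so that no gene but its twin came close. For Srp14 they were Brk1 (0.026), Mob1a (0.057) and Dtnbp1 (0.064), and for Srp68 Rala, Mllt6 and Dnajc14 (0.045, 0.046 and 0.050).

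Genes that act beside the SRP were counted from lists. Naca and Btf3, the nascent chain complex that binds chains as they leave the ribosome, both lay above the reference, at 111 ± 29.7 and 84.7 ± 16.7 TPM (SD, n = 3). Both exceeded every SRP subunit mRNA. Of 12 translocon genes 7 lay above and 3 below. The 2 highest were Ssr3 and Sec61b (46.4 ± 7.94 and 32.4 ± 8.11 TPM) and the 2 lowest Sec61a2 and Tram2 (0.950 ± 0.210 and 1.71 ± 0.151 TPM). All 5 signal peptidase genes, whose products remove signal peptides, lay above the reference, from Spcs3 (13.7 ± 0.915 TPM) and Sec11a (15.5 ± 1.502) to Spcs2 (28.4 ± 4.86) and Spcs1 (52.3 ± 9.57). The median log2 difference was 1.42 for the translocon and 1.95 for signal peptidase, against 1.12 for the 6 SRP subunits and -1.06 over all genes tested. Of 7 genes of other targeting routes 3 lay above and 2 below, with Bag6 and Asna1 highest (32.4 ± 4.82 and 19.3 ± 3.37 TPM) and Wrb and Ubl4a lowest (1.63 ± 0.105 and 3.12 ± 0.294 TPM). The listed gene Camlg was not analysed here.

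Genes of the polymerase that makes 7SL RNA are described here beside all genes tested. Of 25 genes of RNA polymerase III and its factors 3 lay above the reference, 12 below and 10 neither, with a median log2 difference of -0.92. Over all genes tested 20.5% lay above and 50.6% below, with a median of -1.06. The highest were Polr1d, a subunit shared with RNA polymerase I, and Ssb, the La protein that binds the ends of new polymerase III transcripts (21.1 ± 2.66 and 20.9 ± 1.62 TPM). The lowest were Polr3g and Brf2 (0.570 ± 0.0400 and 1.04 ± 0.0971 TPM). Of 6 other RNAs made by the polymerase, 4 passed the filter on low values and lay above the reference. Rn7sk and Rpph1 were the highest at 33002, 77014 and 83514 TPM and at 29194, 47578 and 44882 TPM, and neither reached 7SL RNA in any library. Rny1 and Rny3, the Y RNAs, were listed at 0 in the first quantification in all 3 libraries, and measured 5.87 ± 3.66 and 25.2 ± 3.42 TPM in the second (SD, n = 3).

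**Figure D5:**
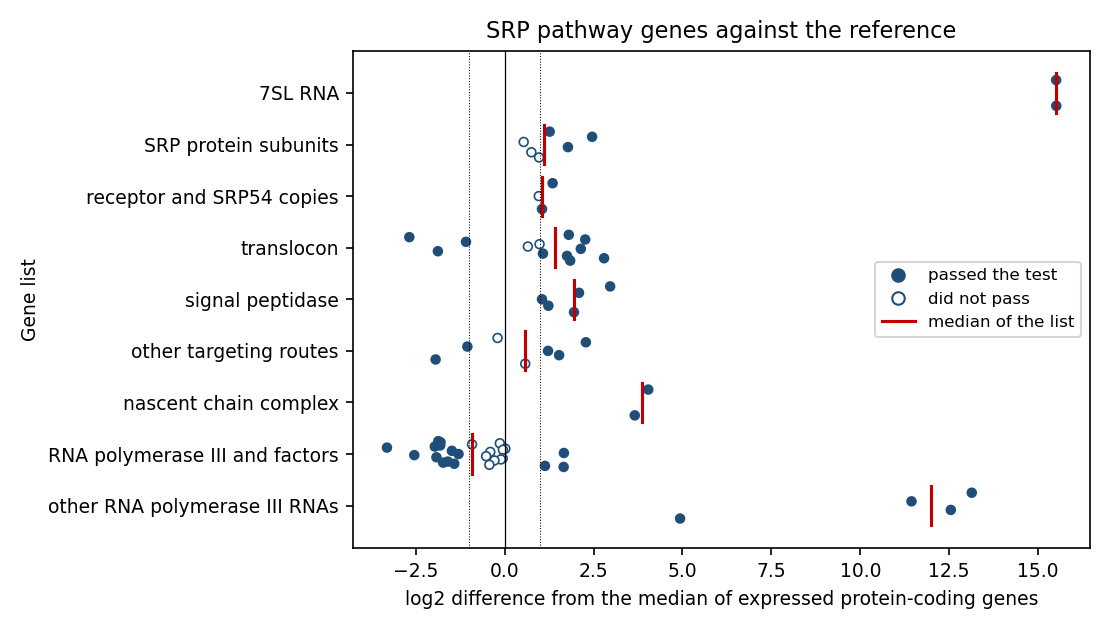
Log2 difference of each gene from the reference (horizontal axis) by gene list (vertical axis). Filled points passed the limma test and size, open points did not, red lines are list medians, and dotted lines mark 1 and -1. 7SL RNA lies at 15.51, the 6 SRP subunits have a median of 1.12, and RNA polymerase III genes one of -0.92.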

How the data were processed

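All 3 libraries, 1 group, were used. Per the deposited notes, the authors aligned reads to mm10 with GENCODE M21; the sources used here do not name the quantifiers. Per the file headers, the first quantification gives effective lengths, expected counts, FPKM and TPM, and the second estimated counts and TPM per transcript, summed here per gene. The members and lists were chosen with earlier results of these data known. Of 81881 entries, 55450 are annotated genes, and the rest were used only in totals. Levels were log2(TPM + 0.1), so fold changes of low genes are understated. They were tested with limma 3.58.1 on genes of at least 0.1 TPM, and the quantifications were compared on genes of at least 1 TPM in either. Spread was tested with edgeR 4.0.16 (trended dispersion, TMM) on expected counts rounded to whole numbers, with at least 10 in every library. The tests were checked on simulated data: edgeR recovered 38.8% of 2-fold and 100% of 4-fold changes among 12324 genes. The simulation gave every gene the same dispersion and put changes in 1 library only, so this recovery need not hold for 7SL RNA or other abundant RNAs. DESeq2 1.42.0 gave alternative size factors. Sequences were read from GENCODE M21 transcripts and aligned with blastn 2.17.0; those of the 7SL genes are not reported here. Named genes were the 9 members, Srpr, Srp54b, Srp54c, the 2 highest and 2 lowest of each list by mean TPM, the 3 genes nearest in level to Rn7s1, Srp14 and Srp68, and the 5 highest other 7SL copies. Other genes were named after their values were seen. Depth limits the mRNAs, at 438 to 1446 counts for Srp19 and Srp14 in replicate 1. Alternatives changed the pseudocount, unit, filter, reference, scaling or quantification, or left out 1 library.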

Additional observations from a re-analysis of the deposited data

How the results depend on the processing

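No paired analysis was possible because the libraries form 1 group. Of the 9 genes 5 lay above the reference, and without 1 library in turn the count ranged from 5 to 5. Against a reference of genes of at least 5 TPM 3 lay above (Rn7s1, Rn7s2 and Srp14) and 1 below (Srprb). The count was 6 with FPKM, 4 in the second quantification and 7 with counts per annotated length. For these the cutoff of 1 for reference genes was applied to values on another scale. The set of reference genes was thus not held fixed, and the counts do not measure a change of the members alone. Each of these counts holds the identical pair as 2 entries, although it measures 1 RNA. Of all genes tested, 15.5% lay above in the second quantification and 21.3% with counts per annotated length, instead of 20.5%. With FPKM 3087 of 14706 genes tested lay above, and against the reference of at least 5 TPM 10.7% did. Without centring, 8 genes were called lower in the second quantification, against 86.8% of all genes tested. Srp72 then moved from 0.02 to -1.23 log2 units, since the median of all genes was no longer subtracted. The log2 ratio of 7SL RNA to the median subunit was 15.39 and changed to 15.06 in the second quantification, 13.85 with counts per annotated length, 11.23 with expected counts and 15.23 with the mean of the subunits; without 1 library it ranged from 15.35 to 15.43. The 7SL share of TPM was 61.9%, against 20.3% in the second quantification, 57.6% there without the 5 entries (added after the data were seen) and 10.7% of expected counts; without 1 library it ranged from 60.9% to 63.2%. The count of members called for spread was 0 under every alternative run. Over all genes, the reference of at least 5 TPM gave 1422 above instead of 2725 (13.9% of calls instead of 28.8%), and no filter gave 48807 below instead of 6740.0. The second quantification was higher for 1487 genes with a filter of 0.1 TPM instead of 258, and lower for 102 with a pseudocount of 1, 117 with counts and 8222 without centring instead of 178. Without replicate 2 it was higher for 170.0 and lower for 105. The calls for spread, 286 in all, were 145, 156 and 88 without replicates 1, 2 and 3.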
